A study of Zea mays with 9 samples.

Results

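Zm00001d038049, Zm00001d043361 and Zm00001d038741 are 3 genes of maize (Zea mays) described in the study's supplementary lists as Lichenase-2, Glucan endo-1,3-beta-glucosidase 1 and Pistil-specific extensin-like protein. They were taken by identifier from a table of 45260 identifiers, 43484 of them Zm00001d gene models, and all 3 were found. The table gives RNA levels in primary root apexes of the inbred line B73, from 3-day-old seedlings treated for 24 h with 1 mM nitrate (+NO3-, given as KNO3), with 1 mM ammonium (+NH4+, given as NH4Cl) or without nitrogen (-N, the negative control). Per the methods, the seedlings of all 3 conditions had first been kept in an N-deprived solution. Each condition had 3 biological replicates, which makes 9 libraries, and a replicate pooled 10 to 15 plants according to the record of the series (the methods give another number).

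The deposited values are RPKM (reads per kb of transcript, scaled to the size of the library), one per gene and condition as the authors' value over the 3 replicates. No value per replicate was at hand, so differences are given by size alone, with neither error nor p-value. The methods give the size of the libraries, but the table holds no counts, and the reads behind a single value cannot be read from it. A log2 ratio was called past the fold threshold when it lay beyond 0.58 in either direction, which is 1.5-fold and the fold threshold of the study without its false discovery rate. The 3 genes had been picked from lists of genes that differed between these same libraries, so their differences are a description and not independent evidence. K+ and Cl- came with the N forms, so that a difference between N forms and a difference between counter-ions cannot be told apart.

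The cell wall of a grass root is a network of cellulose and hemicelluloses, among which mixed-linkage (1,3;1,4)-beta-glucan is a hallmark of grasses, with some pectin and structural proteins. Lichenases are endo-hydrolases that cut mixed-linkage beta-glucan, while endo-1,3-beta-glucosidases cut 1,3-beta-glucans such as callose, the polymer of the cell plate and of plasmodesmata. Extensins are hydroxyproline-rich glycoproteins that are secreted and can be cross-linked into the wall. The first pair acts on polysaccharides, and the extensin-like protein belongs by its description to the structural proteins. The descriptions rest on sequence annotation, and no activity was measured.

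All 3 genes had their highest level after nitrate, and their levels after ammonium took different places. Relative to -N, the level after nitrate was 1.89-fold higher for the lichenase gene, 1.60-fold for the glucanase gene and 6.09-fold for the extensin-like gene. After ammonium the extensin-like gene was 4.68-fold higher than in -N, the lichenase gene 1.25-fold higher, and the glucanase gene had 0.711 times its -N level. After nitrate all 3 genes were past the fold threshold, and after ammonium the extensin-like gene alone was.

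**Figure D1:**
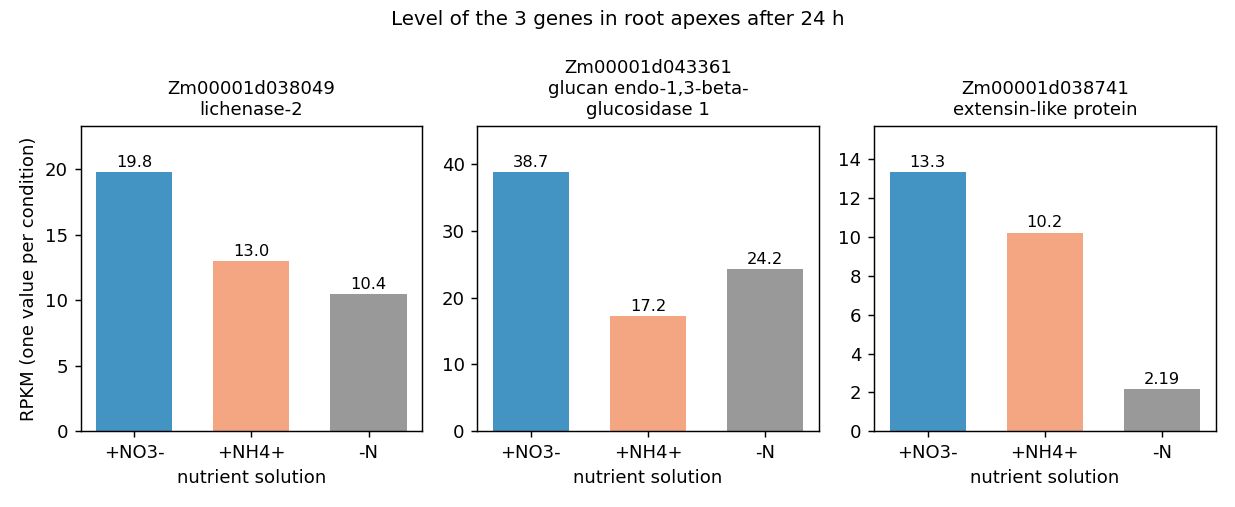
RPKM (vertical axes, each starting at 0) of Zm00001d038049, Zm00001d043361 and Zm00001d038741 in +NO3-, +NH4+ and -N root apexes, as one bar per condition with no error bar since the table has one value per condition. The +NO3- bar is the highest for each gene, and the lowest bar is -N for the lichenase gene (10.4 RPKM) and the extensin-like gene (2.19 RPKM) but +NH4+ for the glucanase gene (17.2 RPKM).

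The lichenase gene Zm00001d038049 had 19.8 RPKM after nitrate, 13.0 RPKM after ammonium and 10.4 RPKM in -N. Its log2 ratio to -N was 0.92 after nitrate, past the fold threshold, and 0.32 after ammonium, within it. The direct log2 ratio of ammonium to nitrate was -0.60, and this value lies close to the threshold. It came within it with a pseudocount of 1 (-0.57) and with the median log2 ratio of all genes set to 0 (-0.58 when rounded), so that its call between the N forms depends on the setting. The order of its levels was nitrate, ammonium, -N.

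The glucanase gene Zm00001d043361 was the most abundant of the 3 in every condition, at 38.7 RPKM after nitrate, 17.2 RPKM after ammonium and 24.2 RPKM in -N. It was the only one of the 3 with a level under that of -N after ammonium. The log2 ratio to -N was 0.68 after nitrate and -0.49 after ammonium. The ammonium ratio lay within the threshold under the other pseudocounts and scalings, but close to it with the columns scaled to the same upper quartile (-0.57). The other settings could not have brought it past the threshold. Between the N forms the log2 ratio of ammonium to nitrate was -1.17, the largest of the 3 genes in size, so that ammonium root apexes had 0.445 times the level of nitrate root apexes.

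The extensin-like gene Zm00001d038741 had 13.3 RPKM after nitrate, 10.2 RPKM after ammonium and 2.19 RPKM in -N. Both N forms stood far above -N, with log2 ratios of 2.61 after nitrate and 2.23 after ammonium. A pseudocount of 1, which weighs most on the low -N value, reduced these to 2.17 and 1.82. The 2 N forms were nearer to each other, with a log2 ratio of ammonium to nitrate of -0.38, within the threshold.

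Because RPKM is per length, levels can also be compared between genes within a condition. After nitrate the glucanase gene stood at 2.91 times the RPKM of the extensin-like gene, after ammonium at 1.69 times, and in -N at 11.1 times. The glucanase gene exceeded the lichenase gene 1.96-fold after nitrate, 1.32-fold after ammonium and 2.32-fold in -N. The lichenase gene exceeded the extensin-like gene 1.48-fold, 1.27-fold and 4.77-fold in the same conditions. The order glucanase, lichenase, extensin-like thus held in all 3 conditions, and the 3 levels lay closest together after ammonium. Ranked among the identifiers listed above 0, the extensin-like gene lay above 67.0% of them after nitrate, 61.2% after ammonium and 39.3% in -N. The glucanase gene lay above 86.4%, 71.3% and 78.8%, and the lichenase gene above 75.1%, 65.6% and 62.3%. These are middle to upper positions, except that the extensin-like gene in -N lay below most of these identifiers. None of the 3 genes is among the most abundant RNAs of the apex.

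The members' calls were read beside those of every gene that reached 1 RPKM in either condition of a comparison. After nitrate, 11.9% of the 21290 genes compared were past the threshold upward and 5.46% downward (17.4% in either direction), and all 3 members were upward. After ammonium, 19.6% of the 21373 genes compared were upward and 11.3% downward (30.9% in either direction), and 1 of the 3 members was upward. With the columns scaled to the same upper quartile, the calls after ammonium were split into 53.1% higher, against 63.3% in the deposited scaling. Between ammonium and nitrate, 14.1% of the 21660 genes compared were lower and 15.5% higher after ammonium (29.6% in either direction), and 2 of the 3 members were lower. This balance also turned with the scaling, with 45.2% of the calls higher under the same upper quartile, against 52.3% in the deposited scaling. The choice of the 3 genes used these comparisons, so nothing is read from the counts.

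**Figure D2:**
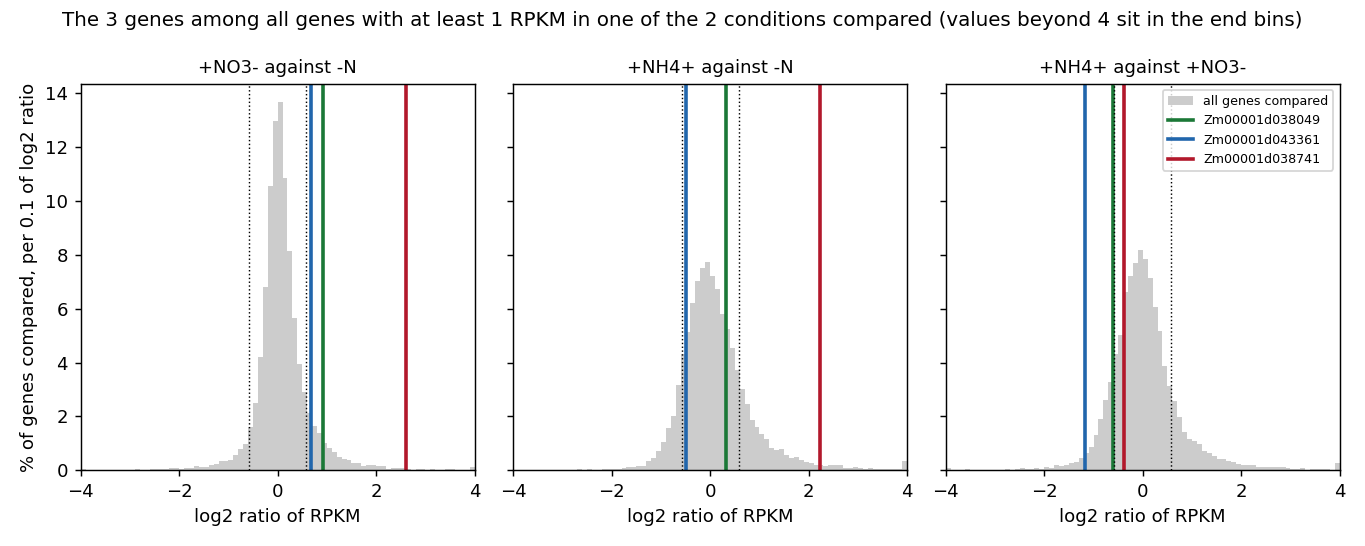
Distribution of the log2 ratio of RPKM over all genes compared that were above 0 in both conditions (grey, % of genes per 0.1) in each of the 3 comparisons, with the lichenase gene Zm00001d038049 (green), the glucanase gene Zm00001d043361 (blue) and the extensin-like gene Zm00001d038741 (red) as vertical lines, and dotted lines at the threshold of 0.58 in either direction. The red line stands far from the bulk in both comparisons with -N (2.61 and 2.23), while the blue line stands at 0.68 after nitrate and at -1.17 for ammonium against nitrate.

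How unusual each ratio was in size can be read from its place among all genes compared, with genes listed at 0 in one condition counted by direction. After nitrate, 0.841% of the genes were at least as far above -N as the extensin-like gene Zm00001d038741, against 5.96% for the lichenase gene Zm00001d038049 and 9.77% for the glucanase gene Zm00001d043361. After ammonium, 2.42% were at least as far above -N as the extensin-like gene and 31.2% as the lichenase gene, and 15.2% were at least as far below -N as the glucanase gene. For ammonium against nitrate, 2.91% of genes were at least as far below as the glucanase gene, 13.2% as the lichenase gene and 23.6% as the extensin-like gene. The extensin-like gene was therefore set apart in both comparisons with -N, the glucanase gene in the comparison of the N forms, and the lichenase gene in none of them to that degree. The 3 genes had been chosen from genes that differed between these libraries, so these places are a description.

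The level was highest after nitrate for 33.0% of the 21853 genes that reached 1 RPKM anywhere. The order nitrate, ammonium, -N, shown by the lichenase and extensin-like genes, was that of 12.8% of these genes. The order nitrate, -N, ammonium, shown by the glucanase gene, was that of 20.1%. The shares of the possible orders ran from 8.85% to 23.3%, so the first order was among the less frequent and the second among the more frequent. The pattern of a gene over 3 values carries little information beyond the order and the size of 2 ratios.

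The genes whose pattern was most like each member were found as those with the smallest distance between the pairs of log2 ratios to -N (nitrate and ammonium), among 12730 other identifiers that were nowhere at 0 and reached 10 RPKM. For the lichenase gene these were Zm00001d034839 (distance 0.051), Zm00001d002543 (0.058) and Zm00001d047119 (0.065). For the glucanase gene they were the non-coding RNA ENSRNA049465428 (0.065) and the genes Zm00001d030310 (0.065) and Zm00001d003760 (0.074). For the extensin-like gene they were Zm00001d000825 (0.30) and the non-coding RNAs ENSRNA049476004 (0.39) and ENSRNA049472536 (0.39). The lichenase gene had 89 such identifiers within a distance of 0.25 and the glucanase gene 75, while the extensin-like gene had 0. The members were themselves far apart, at a distance of 0.85 between the lichenase and glucanase genes, 2.55 between the lichenase and extensin-like genes and 3.33 between the glucanase and extensin-like genes. The likeness is over 3 conditions that share the -N value and is given as a description. The identifiers named here carry no description in the sources used.

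A list of 18 other genes whose descriptions place them in the cell wall or apoplast was read beside the members. The list comes from the same supplementary lists, whose genes had been chosen from these libraries as different, so its counts are no independent evidence of a direction. It holds the beta-galactosidase and beta-glucosidase genes and 5 more genes from an apoplast group that the study had selected as up-regulated by nitrate. It also leaves out 17 further dirigent, mannitol dehydrogenase and peroxidase genes of the same supplementary lists. After nitrate, 14 of the 17 list genes that reached 1 RPKM were past the threshold upward, 0 downward and 3 within it, with a median log2 ratio of 0.91 against 0.04 over all genes. After ammonium, 11 of 17 were upward, 0 downward and 6 within it, with a median of 1.10 against 0.02. Between ammonium and nitrate, all 18 could be compared, and 6 were higher after ammonium, 7 lower and 5 within the threshold, with a median of -0.27 against -0.03. Over all genes compared, 11.9% were upward and 5.46% downward after nitrate, and 19.6% upward and 11.3% downward after ammonium. Between the N forms, 15.5% of all genes were higher and 14.1% lower after ammonium.

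These 17 dirigent, mannitol dehydrogenase and peroxidase genes, which were added after the values were seen, had mostly the other direction. After nitrate, 14 of the 16 that reached 1 RPKM were past the threshold downward, 1 upward and 1 within it. With them in the list, 15 genes were upward and 14 downward after nitrate, 14 upward and 10 downward after ammonium, and 19 higher and 7 lower after ammonium than after nitrate. The dirigent protein gene Zm00001d048814 had 1.21 RPKM after nitrate, 3.30 RPKM after ammonium and 4.33 RPKM in -N, and the mannitol dehydrogenase gene Zm00001d045043 had 28.5, 72.2 and 50.4 RPKM. Of the peroxidase genes, Zm00001d040364 was the most abundant, with 425 RPKM after nitrate, 499 RPKM after ammonium and 890 RPKM in -N. The absence of downward calls in the list of 18 thus rests on which genes of these families it holds. In the study's own category analysis of all its differing genes, the cell wall category was enriched among those that nitrate lowered. The study found no significant effect of ammonium on that category.

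**Figure D3:**
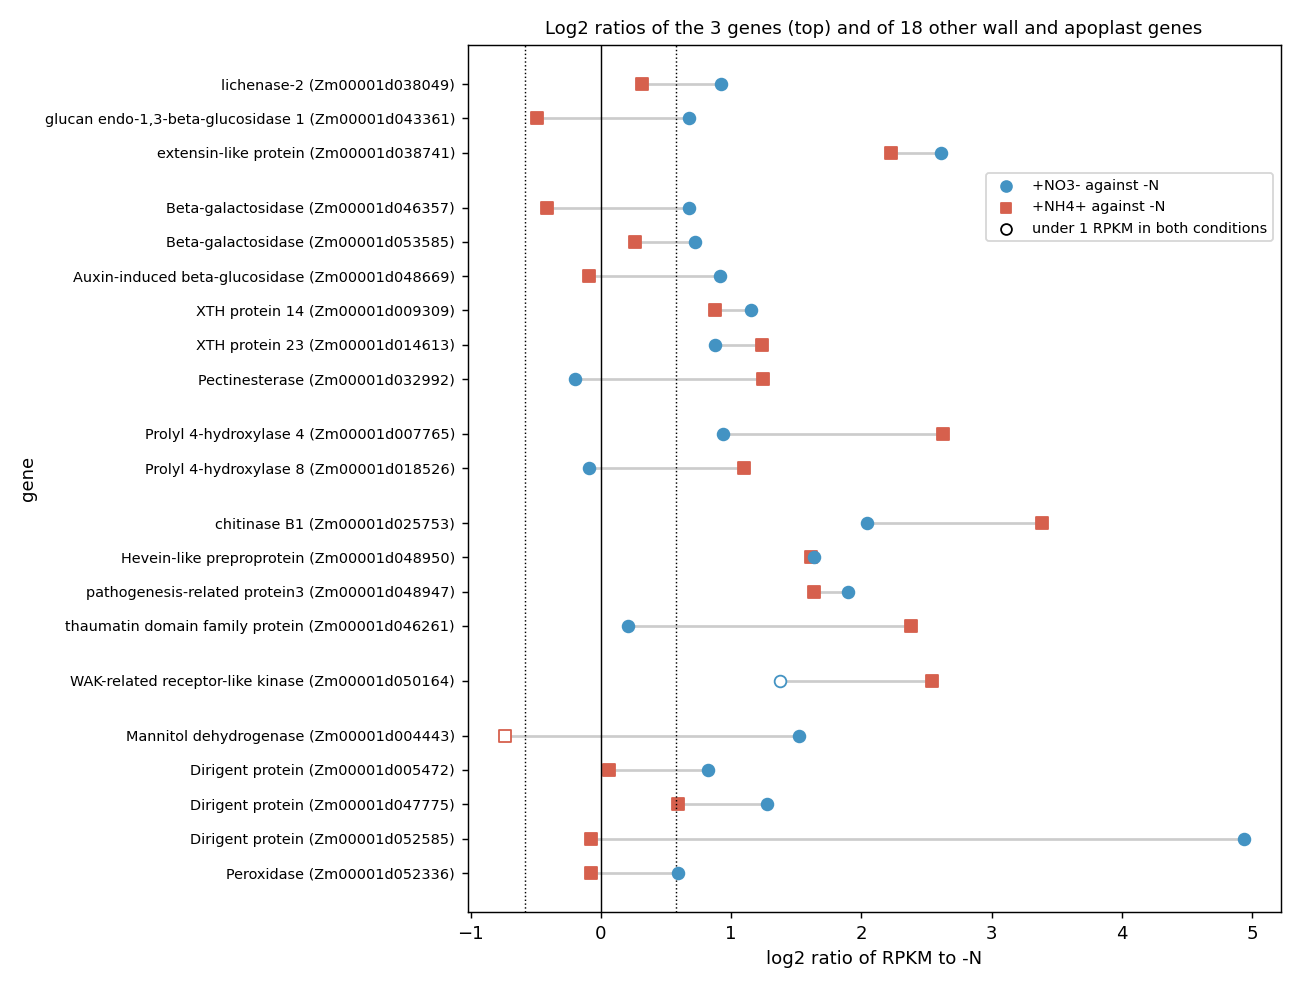
Log2 ratio of RPKM to -N after nitrate (blue circles) and after ammonium (red squares) for the 3 members at the top and for 18 other genes related to the wall or apoplast, grouped by role. Dotted lines mark 0.58 in either direction, and open symbols mark genes under 1 RPKM in both conditions (XTH, xyloglucan endotransglucosylase/hydrolase). The 5 other apoplast genes at the bottom have their nitrate symbol to the right of the ammonium symbol, as the 3 members do, whereas both prolyl 4-hydroxylase genes have the ammonium symbol farther right. The study had listed these apoplast genes as up-regulated by nitrate alone and the prolyl 4-hydroxylase genes as up-regulated by ammonium. Their positions thus reflect how the genes were chosen.

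Among the 6 genes for other enzymes that act on wall polysaccharides, 5 were past the threshold upward after nitrate and 3 after ammonium. Over all genes compared, the shares upward were 11.9% and 19.6%. The study had listed the beta-galactosidase and beta-glucosidase genes as up-regulated by nitrate and the pectinesterase gene as up-regulated by ammonium. It had listed the xyloglucan endotransglucosylase/hydrolase genes as up-regulated by both, so these counts reflect how the genes were chosen. The beta-galactosidase gene Zm00001d046357, for an enzyme that removes galactose from wall polymers, had 52.4 RPKM after nitrate, 24.6 RPKM after ammonium and 32.8 RPKM in -N. Its log2 ratios of 0.67 and -0.42 to -N came near those of the glucanase gene. The beta-galactosidase gene Zm00001d053585 had 7.21, 5.22 and 4.36 RPKM in +NO3-, +NH4+ and -N, the order of the lichenase gene, with log2 ratios of 0.73 and 0.26. The auxin-induced beta-glucosidase gene Zm00001d048669 had 9.67, 4.82 and 5.14 RPKM in these conditions, so that nitrate alone stood past the threshold (0.91).

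Xyloglucan endotransglucosylase/hydrolases cut and rejoin xyloglucan chains. Zm00001d009309, described as XTH protein 14, had 12.8 RPKM after nitrate, 10.6 RPKM after ammonium and 5.75 RPKM in -N, past the threshold after both N forms (1.16 and 0.88). Zm00001d014613, described as XTH protein 23, had its highest level after ammonium, at 29.1 RPKM, with 22.6 RPKM after nitrate and 12.4 RPKM in -N. The pectinesterase gene Zm00001d032992, for an enzyme that removes methyl esters from pectin, had 30.7 RPKM after nitrate, 83.3 RPKM after ammonium and 35.2 RPKM in -N. It was thus the one enzyme gene of the 6 with a nitrate level under that of -N (log2 ratio -0.20, within the threshold).

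Prolyl 4-hydroxylases make the hydroxyproline to which the sugars of extensins are attached. The gene described as prolyl 4-hydroxylase 4, Zm00001d007765, had 25.0 RPKM after nitrate, 80.7 RPKM after ammonium and 13.1 RPKM in -N, with log2 ratios of 0.94 and 2.63. The gene for prolyl 4-hydroxylase 8, Zm00001d018526, had 27.9, 63.8 and 29.8 RPKM in +NO3-, +NH4+ and -N, past the threshold after ammonium (1.10) and not after nitrate (-0.09). Both had higher levels after ammonium than after nitrate, with log2 ratios of ammonium to nitrate of 1.69 and 1.19. The extensin-like gene Zm00001d038741 had the opposite sign in that comparison, at -0.38 and within the threshold. The study had listed both prolyl 4-hydroxylase genes as up-regulated by ammonium and the extensin-like gene as up-regulated by both N forms. The contrast thus reflects which list each gene came from.

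The 4 genes of the list grouped as pathogenesis-related were all past the threshold after ammonium, and 3 of them after nitrate. The supplementary lists hold a further gene described as a pathogenesis-related protein, listed as up-regulated by ammonium. It was not in the list, so the counts cover these 4 genes alone. Over all genes compared, 19.6% were upward after ammonium and 11.9% after nitrate. The study had listed the chitinase B1 and thaumatin domain genes as up-regulated by ammonium and the others as up-regulated by both N forms. These counts therefore reflect how the genes were chosen. Endo-1,3-beta-glucanases and chitinases are both known as defence proteins of plants, besides their roles in development. The pathogenesis-related protein 3 gene Zm00001d048947 had 15.9 RPKM after nitrate, 13.2 RPKM after ammonium and 4.25 RPKM in -N, and the hevein-like gene Zm00001d048950 had 4.14, 4.08 and 1.33 RPKM in the same conditions. In both genes nitrate and ammonium stood above -N to a like extent (log2 ratios of 1.90 and 1.63 for the first, 1.64 and 1.61 for the second), as in the extensin-like gene. The chitinase B1 gene Zm00001d025753 had 1.12, 2.83 and 0.271 RPKM in +NO3-, +NH4+ and -N, and the thaumatin domain gene Zm00001d046261 had 1.64, 7.40 and 1.42 RPKM. Both are low in -N. Unlike these 4 genes, the glucanase gene had an ammonium level under that of -N, and the study had listed it under nitrate alone.

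Wall-associated kinases are receptors that bind pectin. The WAK-related receptor-like kinase gene Zm00001d050164 had 0.658 RPKM after nitrate, 1.47 RPKM after ammonium and 0.254 RPKM in -N, and was not called after nitrate because both values lay under 1 RPKM. The remaining 5 apoplast genes, for a mannitol dehydrogenase, 3 dirigent proteins and a peroxidase, were past the threshold upward after nitrate. All were lower after ammonium than after nitrate (log2 ratios from -5.01 to -0.66). The study had listed them as up-regulated by nitrate alone, so both directions reflect their selection. Dirigent proteins guide the coupling of monolignols to lignans, and peroxidases can cross-link extensins and lignin. The peroxidase gene Zm00001d052336 had 60.2 RPKM after nitrate, 38.0 RPKM after ammonium and 40.0 RPKM in -N, and its nitrate log2 ratio of 0.59 came within the threshold under 3 other scalings (0.54 to 0.57). The lichenase gene Zm00001d038049 is listed by the study under the apoplast with these genes.

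Marker genes of dividing cells and of the root cap differed between some of the conditions as well. The gene for proliferating cell nuclear antigen (Zm00001d018415), a DNA replication clamp of dividing cells, had 73.0 RPKM after nitrate, 39.1 RPKM after ammonium and 78.3 RPKM in -N. The gene described as SOMBRERO (Zm00001d016119), a transcription factor of the root cap in Arabidopsis, had 4.77 RPKM after nitrate, 2.84 RPKM after ammonium and 1.17 RPKM in -N. The SOMBRERO gene had the same order of levels as the extensin-like and lichenase genes, with log2 ratios of 2.02 and 1.28 to -N. In bulk tissue, fewer cells of a type and less RNA per cell cannot be told apart, and the part of the root cap or of dividing cells in the levels of the 3 genes was not tested. These 2 markers were chosen after the member values were known and are single genes. Both came from the study's lists of genes that differed between these libraries, so that they differ is no independent evidence. The study had listed the first as down-regulated by ammonium and the second as up-regulated by both N forms.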

How the data were processed

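RNA of primary root apexes was sequenced from poly(A) libraries (TruSeq). Per the labels and the methods of the study, reads were called with CASAVA 1.8, trimmed with Trimmomatic 0.33, mapped with TopHat2 2.0.13 to B73 RefGen_v4, filtered for reads of many positions and summarised with Cuffdiff of Cufflinks 2.2.1. The deposited RPKM values are the authors' single estimate per gene and condition, with correction for reads shared between positions and normalization by quartile. Genes of families such as the beta-glucanases, where similar copies share reads, are less certain.

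Log2 ratios were taken with no pseudocount, over genes that reached 1 RPKM in either condition of a comparison, with Python 3.11.15, numpy 2.4.6 and pandas 2.3.3. The counting was run on simulated data with planted changes well past the threshold, which checks the code and says nothing on calls near the threshold. The alternatives were an added 0.1 or 1 RPKM, other filters (none, or 5 RPKM), 3 scalings (median, total, upper quartile), a threshold of 1 and Zm00001d gene models only. The text names the 3 members, the listed wall genes, the 3 nearest genes per member among those with at least 10 RPKM, and, added after the values were seen, 2 marker genes and 17 further genes of the descriptions listed. The members and lists were chosen with earlier results of these data known. Descriptions come from the study's supplementary lists. The RefSeq gene table used here matched 0 of the 3 members, so no coordinates, promoter or protein are given and the planned sequence features were not computed.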

Additional observations from a re-analysis of the deposited data

How the results depend on the processing

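No paired analysis was possible because the table has one value per condition and none that carries a replicate number, and for the same reason no replicate could be left out. Another pseudocount or scaling gave 45 member ratios, of which 43 stayed on the same side of the threshold and 2 came within it, with no change of sign. The filters leave these ratios as they are. With the threshold at a log2 ratio of 1, 1 of the 3 members (the extensin-like gene) and 7 of the list genes remained past it after nitrate. For ammonium against nitrate, 1 member (the glucanase gene) was past the threshold with a pseudocount of 1, with the median log2 ratio set to 0 and with the threshold at 1, in place of 2. Ranking likeness by the Pearson correlation over the 3 RPKM values returned 0 of the 9 genes nearest by distance. With the 17 further dirigent, mannitol dehydrogenase and peroxidase genes, an alternative chosen after seeing the data, the wall list had 29 genes past the threshold after nitrate, 24 after ammonium and 26 for ammonium against nitrate, in place of 14, 11 and 13. The numbers over all genes moved with the filter and the threshold. After nitrate 3695 genes were past the threshold, 11020 without a filter, 1812 with at least 5 RPKM and 1657 at a threshold of 1. After ammonium they were 6599, 13966, 4366 and 2720, and for ammonium against nitrate 6410, 13669, 4106 and 2625, in the same order of settings. With no value per replicate, the error of the low -N value of the extensin-like gene is unknown.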
